A study of Mus musculus with 6 samples.

Results

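Chemokines and their receptors were examined in bulk RNA sequencing of mouse colon tumours. The members were all genes in the count table whose mouse symbol starts with Ccl, Cxcl, Ccr or Cxcr and a digit, together with Cx3cl1, Cx3cr1, Xcl1, Xcr1 and Ackr1 to Ackr4. The rule used names alone, with no measured value, and found 63 of the 53700 genes in the table, of which 40 encode or derive from ligands and 23 encode receptors. The tumours came from 3 APC-KI mice and 3 APC-WT mice, and each tumour gave 1 library. All 6 mice received doxycycline in the food at 100 mg/kg. The APC-KI mice had been on doxycycline for 6 weeks, carried the system in which doxycycline represses endogenous Tcf7l2 throughout the body, and were labelled as recovered. The APC-WT mice had been on doxycycline for 10 days, kept endogenous Tcf7l2 expression, and were labelled as cachectic, that is, with the wasting that accompanies advanced cancer. Genotype, time on doxycycline and cachexia state therefore differed together and cannot be told apart. Repression was systemic, so it was not limited to tumour cells, and the labels do not name the promoter that drives it. The tumours were pinched off the muscle layer below them. The labels used here state neither the sex, the age nor the strain of the mice, and p-values measure the spread between these 6 samples, taken as 1 tumour per mouse.

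Chemokines are small secreted proteins that guide moving cells, mostly leukocytes, along concentration gradients. They are named for the spacing of their first cysteines (CC, CXC, XC and CX3C) and act through membrane receptors that couple to G proteins. Atypical receptors, the Ackr genes, bind chemokines without that coupling and take them up, transport them or hold them. In the gut, Ccl25 and its receptor Ccr9 mainly serve the small intestine, Ccl28 and Ccr10 bring antibody-secreting cells to the colon and other mucosae, and Ccl19 and Ccl21 organise lymphoid tissue through Ccr7.

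The libraries held between 51777342 and 63921108 counts. Tcf7l2, the gene under repression, had 4.47, 6.90 and 5.33 CPM, the counts relative to the scaled library size, in APC-KI tumours, against 44.1, 43.8 and 35.6 CPM in APC-WT tumours (log2 change -2.89, SE 0.19, adjusted p = 0.00124), which fits the labels of all 6 libraries. The 4 Y-linked genes Ddx3y, Eif2s3y, Kdm5d and Uty together had 0 counts in all 3 APC-KI libraries and in APC-WT replicate 3, and 19164 and 16055 counts in APC-WT replicates 1 and 2. Sex was thus unevenly spread over the groups, and results are also given for the 4 libraries without Y-linked counts, where a single APC-WT library remains and is taken to vary like the others. Markers of several cell types were higher in the APC-KI tumours, and these are bulk samples, in which fewer cells of a type and less RNA per cell cannot be told apart. Summed marker levels were 38.6 to 62.2 CPM in APC-KI against 19.4 to 26.9 CPM in APC-WT tumours for T cells (5 of 7 markers passed as higher), and 2.81 to 5.49 against 1.20 to 2.25 CPM for NK cells (1 of 4). For B cells they were 13.3 to 76.3 against 2.35 to 4.71 CPM (2 of 5), the top value being that of APC-KI replicate 2, and for plasma cells 1170 to 2055 against 569 to 774 CPM (3 of 4). Most of the plasma cell sum in APC-WT tumours was Sdc1, with 476, 444 and 668 CPM. Sdc1 had 480, 488 and 526 CPM in APC-KI tumours and did not pass. Mast cell markers went the other way, with 52.5 to 77.1 CPM in APC-KI and 70.5 to 132 CPM in APC-WT tumours (Kit, Cpa3, Tpsb2 and Fcer1a lower and Hdc higher among 5). Epithelial markers summed to 6847 to 8490 CPM in APC-KI and 5154 to 6211 CPM in APC-WT tumours (3 of 5 higher), which checks the tissue label.

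The chemokine system was on balance higher in the APC-KI tumours. Its members took 0.123%, 0.147% and 0.121% of all counts in APC-KI libraries 1 to 3, against 0.0821%, 0.0947% and 0.0995% in APC-WT libraries 1 to 3. Summed ligand levels were 1116, 1266 and 1027 CPM in APC-KI tumours and 677, 768 and 799 CPM in APC-WT tumours. Summed receptor levels were 189, 280 and 193 CPM in APC-KI tumours and 109, 138 and 164 CPM in APC-WT tumours. In both sums every APC-KI library stood above every APC-WT library, with APC-KI replicate 2 the highest.

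Of the 63 members, 57 had enough counts to be tested, and changes are given as the log2 of APC-KI over APC-WT with a threshold of 0.05 on the p-value adjusted over all 19127 genes tested. Under that rule 18 members were higher in APC-KI tumours (31.6% of those tested, against 12.5% of all genes), 2 were lower (3.51%, against 7.63% of all genes) and 37 did not pass. In either direction 20.1% of all genes passed. With library totals in place of scaling factors 17 members were higher and 3 lower, and over all genes 1978 were higher and 2844 lower, against 2388 higher and 1459 lower with scaling factors. The 3 APC-KI libraries all lay above the 3 APC-WT libraries for 29 members (23% of all genes did) and all below for 4 (21.5% of all genes), while the groups overlapped for 24, where 44.5% of all genes had groups that did not overlap. The median log2 change was 0.94 over the members tested and -0.02 over all genes tested, and 44 of the 57 members had a positive change, against 48.5% of all genes. The 11 ligands that rose were Ccl2, Ccl7, Ccl11, Ccl19, Ccl21a, Ccl28, Cxcl9, Cxcl10, Cxcl12, Cxcl16 and Cx3cl1, the 7 receptors were Ccr1, Ccr8, Ccr9, Ccr10, Cxcr2, Ackr1 and Ackr2, and the 2 that fell were the ligands Ccl25 and Cxcl15. In the 4 libraries without Y-linked counts, 1 member was higher (Cx3cl1, log2 change 1.04, adjusted p = 0.0312) and 0 were lower, in a fit where 0.872% of all genes passed as higher. All 20 changes kept their direction there, and they also did with each library left out in turn. The count of higher members was 8 without APC-KI replicate 1, 7 without APC-KI replicate 2, 11 without APC-WT replicate 1 and 7 without APC-WT replicate 2. Over all genes tested, the share called higher fell as well, to 4.95%, 5.02%, 8.01% and 4.02% in these fits, in the same order. The 5 members that passed with any 1 library left out were Ccl28, Cxcl12, Cx3cl1, Ccr8 and Ackr1.

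**Figure D1:**
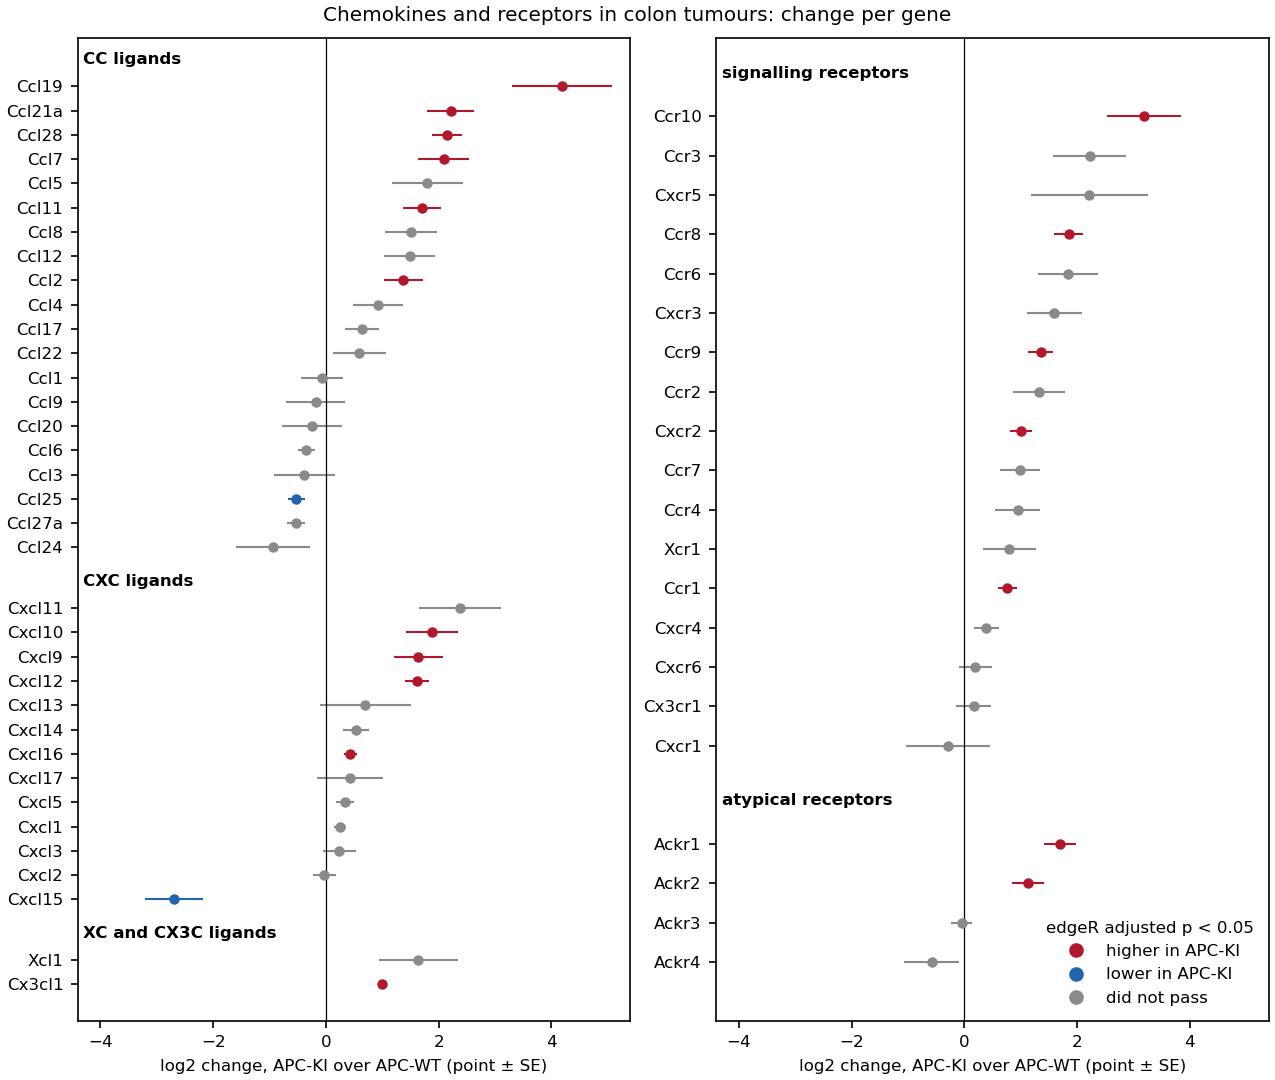
Log2 change (APC-KI over APC-WT) of 56 of the 57 members tested, as points with bars of 1 SE, coloured by whether they passed as higher, passed as lower or did not pass. Most points lie right of 0, from -2.69 for Cxcl15 to 4.19 for Ccl19.

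Among the mucosal homing chemokines, Ccl28 and Ccr10 rose together, and Ccl25 fell while its receptor Ccr9 rose. Ccl28 (chr13:119623819-119654359 on GRCm38), made by mucosal epithelium and a ligand of Ccr10 and Ccr3, had 94.6, 81.9 and 52.3 CPM in APC-KI tumours, against 13.6, 16.8 and 21.5 CPM in APC-WT tumours. The groups were far apart, with the lowest APC-KI library well above the highest APC-WT library. The fitted level was 4.41-fold higher in APC-KI tumours (log2 change 2.14, SE 0.26, adjusted p = 0.00663). Ccr10 (chr11:101172997-101175443), found on plasma cells that secrete IgA and on skin T cells, had 2.69, 3.31 and 0.98 CPM in APC-KI tumours, against 0.10, 0.46 and 0.21 CPM in APC-WT tumours. APC-KI replicate 3 was the lowest of its group and still above all APC-WT libraries, whose raw counts were 7, 26 and 11. The log2 change of Ccr10 was 3.18 (SE 0.66, adjusted p = 0.0222), and the call did not hold without APC-KI replicate 1 (adjusted p = 0.0726), APC-KI replicate 2 (adjusted p = 0.0673) or APC-WT replicate 1 (adjusted p = 0.0504). The plasma cell markers Jchain, Mzb1 and Tnfrsf17 were higher in the same libraries (log2 changes 3.30, 3.40 and 3.25), and their part in the Ccr10 result was not tested. Sdc1, the other marker of that list, did not pass (log2 change -0.09, adjusted p = 0.708).

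Ccl25 (chr8:4325210-4360020), best known from the thymus and small intestine, had 14.6, 14.9 and 14.8 CPM in APC-KI tumours, against 24.9, 21.7 and 17.2 CPM in APC-WT tumours. The APC-KI libraries were nearly equal and lay below all APC-WT libraries, of which replicate 3 came closest. Its log2 change was -0.53 (SE 0.15, adjusted p = 0.0487), and the call ended without any single library other than APC-WT replicate 3, with adjusted p of 0.139, 0.133 and 0.0887 without APC-KI replicates 1, 2 and 3 and of 0.0968 and 0.135 without APC-WT replicates 1 and 2. Ccr9 (chr9:123678439-123784330), the receptor of Ccl25 on gut-homing lymphocytes, had 2.61, 3.17 and 3.01 CPM in APC-KI tumours, against 1.00, 1.11 and 1.33 CPM in APC-WT tumours. Its groups were tight and well apart, with a log2 change of 1.35 (SE 0.22, adjusted p = 0.0108). Ccr9 missed the threshold without APC-WT replicate 2 (log2 change 1.33, adjusted p = 0.0517). Its exons share 1954 bases with genes on the other strand and those of Ccl25 share 204 with Elavl1, so a count that ignored strand would mix them. Ccl27a, a skin chemokine and the other ligand of Ccr10, had 3.69, 3.63 and 3.70 CPM in APC-KI tumours, against 4.93, 5.67 and 5.35 CPM in APC-WT tumours, and did not pass (log2 change -0.53, adjusted p = 0.0608).

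**Figure D2:**
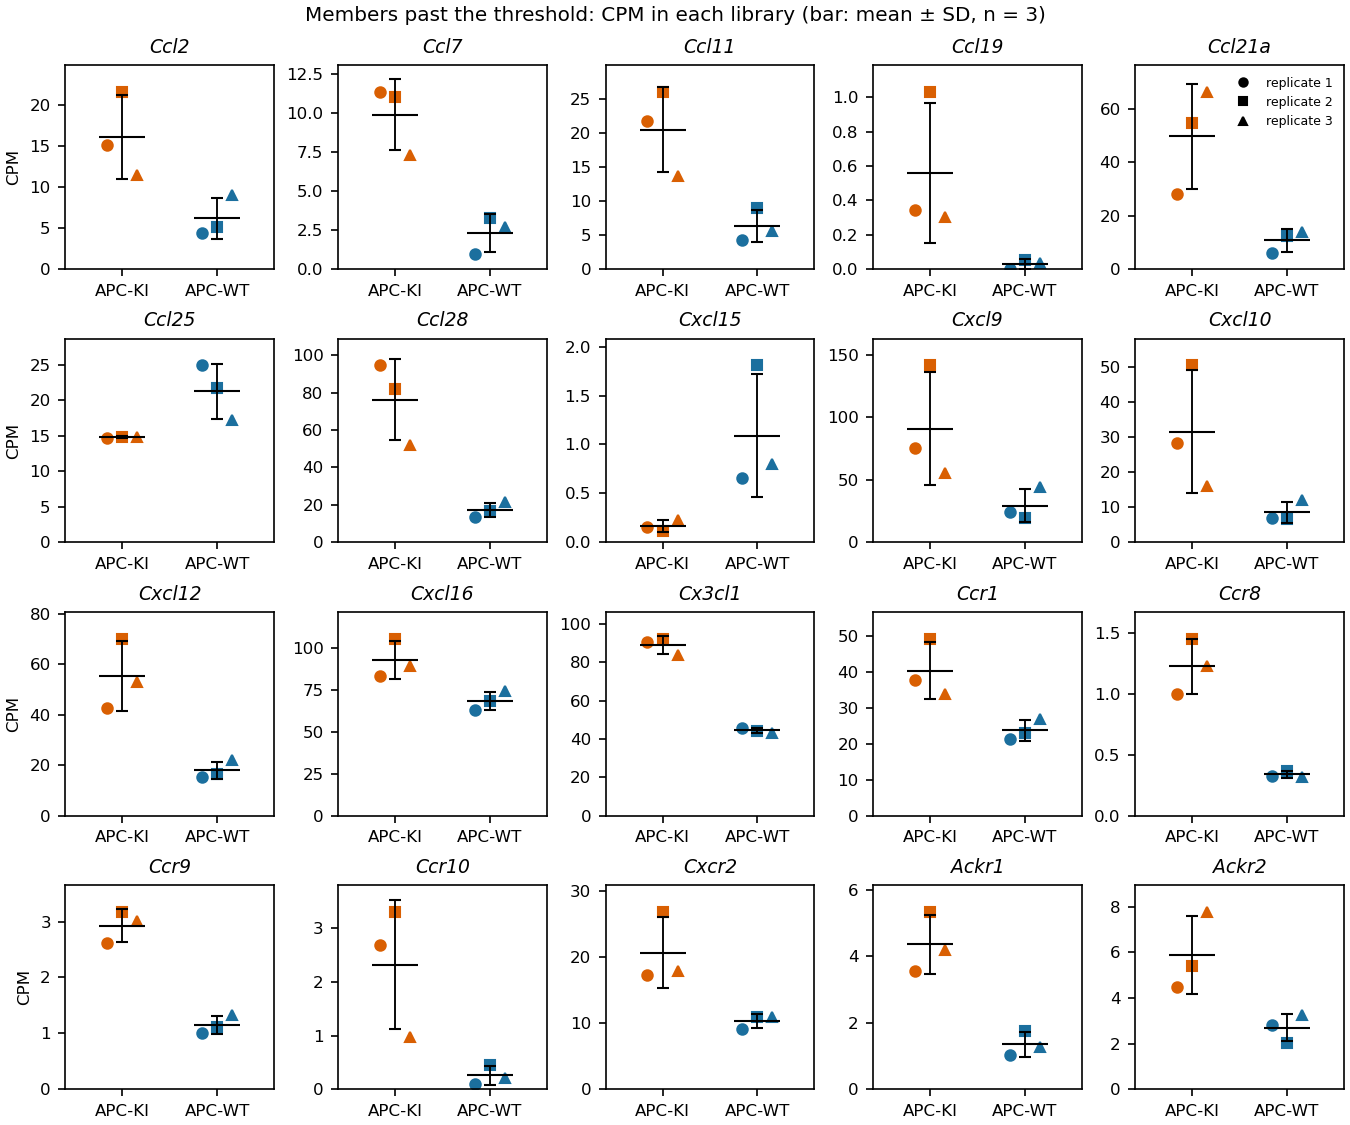
CPM in each library (vertical axis from 0) for members that passed the test, with APC-KI at the left and APC-WT at the right of each panel a line at each group's mean and error bars of 1 SD (n = 3). In each panel the points of the groups do not overlap.

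Both ligands of Ccr7 rose. Ccl21a (chr4:42772860-42773993), made by lymphatic endothelium and by the stroma of lymphoid tissue, had 28.0, 54.6 and 66.3 CPM in APC-KI tumours, against 5.98, 12.3 and 13.9 CPM in APC-WT tumours. APC-KI replicate 1 was the lowest of its group and still well above the highest APC-WT library. The fitted level of Ccl21a was 4.63-fold higher (log2 change 2.21, SE 0.42, adjusted p = 0.0187), and it did not pass without APC-KI replicate 2 (adjusted p = 0.0548) or APC-WT replicate 2 (adjusted p = 0.0637). Ccl19 (chr4:42754525-42756577), made by lymphoid stroma and mature dendritic cells, was sparse, with 18, 54 and 17 counts in APC-KI tumours and 0, 3 and 2 counts in APC-WT tumours. These are 0.35, 1.03 and 0.30 CPM in APC-KI tumours against 0, 0.05 and 0.04 CPM in APC-WT tumours, so the fitted log2 change of 4.19 (SE 0.88, adjusted p = 0.0227) rests on very few APC-WT counts. The call for Ccl19 ended without APC-KI replicate 1, APC-KI replicate 2 or APC-WT replicate 2 (adjusted p = 0.0553, 0.0603 and 0.0669). Ccr7, the receptor that takes naive T cells and dendritic cells to lymph nodes, had 4.30, 7.82 and 4.09 CPM in APC-KI tumours, against 2.56, 1.95 and 3.66 CPM in APC-WT tumours. Its groups did not overlap, but it did not pass (log2 change 0.99, SE 0.35, adjusted p = 0.0901). Dendritic cell markers summed to 63.1 to 76.7 CPM in APC-KI and 28.5 to 44.4 CPM in APC-WT tumours, with Itgax the 1 of 5 that passed as higher.

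The mouse genome holds near copies of these genes, and 71.6% of the 50-base stretches of Ccl21a and 59.1% of those of Ccl19 also occur elsewhere in annotated genes, so their levels depend on how shared reads were counted. All the copies of Ccl21a had 0 counts in every library, and the only copy of Ccl19 with counts, Gm12407, had 1, 7 and 3 in APC-KI tumours and 0 in each APC-WT tumour. Of the lymphatic endothelial markers, Flt4 was higher in APC-KI tumours (log2 change 1.08). Lyve1 had 19.5, 18.9 and 36.3 CPM in APC-KI and 16.3, 12.4 and 15.4 CPM in APC-WT tumours without passing. Pdpn did not pass either (log2 change 1.00, adjusted p = 0.0879). Prox1, which gut endocrine cells also express, was lower (log2 change -1.43). It stood far above Lyve1 in level, with 210, 164 and 285 CPM in APC-KI and 671, 577 and 531 CPM in APC-WT tumours. The B cell markers Cd79a and Cd79b were higher (log2 changes 3.52 and 2.77). Cxcl13, which draws B cells into follicles, had 6.20, 13.9 and 5.62 CPM in APC-KI tumours and 11.8, 2.62 and 1.36 CPM in APC-WT tumours. The groups overlapped through APC-WT replicate 1 (log2 change 0.70, adjusted p = 0.561). Its receptor Cxcr5 had 0.56, 3.9 and 0.25 CPM in APC-KI and 0.18, 0.37 and 0.47 CPM in APC-WT tumours (adjusted p = 0.170), with APC-KI replicate 2 far above the rest. How far B cell content bears on these levels was not tested.

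Several ligands that draw monocytes or eosinophils lie in a run of 6 members on chromosome 11. Of these 6, 3 passed as higher, against 12.5% of all genes. Ccl2 (chr11:82035571-82037453), the main monocyte attractant acting on Ccr2, had 15.1, 21.6 and 11.5 CPM in APC-KI tumours, against 4.39, 5.17 and 9.05 CPM in APC-WT tumours (log2 change 1.371, SE 0.35, adjusted p = 0.0369). Ccl7 (chr11:82045712-82047525), another Ccr2 ligand, had 11.4, 11 and 7.29 CPM in APC-KI tumours, against 0.97, 3.30 and 2.69 CPM in APC-WT tumours (log2 change 2.09, SE 0.45, adjusted p = 0.0247). Ccl11 (chr11:82057823-82062955), or eotaxin, which acts on Ccr3 of eosinophils, had 21.7, 26.0 and 13.6 CPM in APC-KI tumours, against 4.32, 8.89 and 5.57 CPM in APC-WT tumours (log2 change 1.71, SE 0.34, adjusted p = 0.0202). In all 3 genes APC-KI replicate 3 was the lowest library of its group and still above every APC-WT library. Their neighbours Ccl12 and Ccl8 had groups that did not overlap and yet missed the threshold. Ccl12, a mouse Ccr2 ligand, had 4.47, 5.47 and 3.36 CPM in APC-KI and 0.72, 1.53 and 2.5 CPM in APC-WT tumours (log2 change 1.49, adjusted p = 0.0607). Ccl8, which in mice acts on Ccr8, had 12, 20.6 and 9.23 CPM in APC-KI and 2.40, 6.89 and 5.42 CPM in APC-WT tumours (log2 change 1.51, adjusted p = 0.0609). Ccl1, a Ccr8 ligand and the last of the 6, ranged from 0.18 to 0.34 CPM in APC-KI and from 0.21 to 0.32 CPM in APC-WT tumours. The call for Ccl2 ended without APC-KI replicate 1 or 2 (adjusted p = 0.0984 and 0.112) and without APC-WT replicate 1 or 2 (adjusted p = 0.0879 and 0.121). That for Ccl7 ended without APC-KI replicate 1 or 2 or APC-WT replicate 2 (adjusted p = 0.0829, 0.0758 and 0.0517), and that for Ccl11 without APC-KI replicate 1 or 2 (adjusted p = 0.0688 and 0.0632).

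Ccr2 and Ccr3, the receptors of the monocyte and eosinophil attractants, had positive changes that did not pass. Ccr2, carried by inflammatory monocytes, had 25, 44.3 and 22.3 CPM in APC-KI tumours, against 5.83, 12.2 and 18.6 CPM in APC-WT tumours (log2 change 1.32, SE 0.46, adjusted p = 0.0857). Ccr3, the eosinophil receptor, had 0.90, 1.05 and 0.50 CPM in APC-KI tumours, against 0.04, 0.33 and 0.15 CPM in APC-WT tumours (log2 change 2.22, SE 0.64, adjusted p = 0.0529). Neither set of values overlapped between the groups. Summed macrophage and monocyte markers were 219 to 323 CPM in APC-KI and 146 to 186 CPM in APC-WT tumours, with Ly6c2 and Itgam higher among 6 markers. The 3 eosinophil markers did not go together. Prg2 passed as higher, and Siglecf did not pass (adjusted p = 0.148). Epx had too few counts to be tested, with 0, 0 and 6 in APC-KI tumours and 15, 15 and 3 in APC-WT tumours. Ccl24, another eotaxin, had 2.48, 0.92 and 2.10 CPM in APC-KI tumours, against 0.94, 5.01 and 4.56 CPM in APC-WT tumours, and its groups overlapped (adjusted p = 0.335).

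The chromosome 11 genes some distance further on, Ccl5, Ccl9, Ccl6, Ccl3 and Ccl4, did not pass. As 12.5% of all genes passed as higher, a run of 5 may well hold 0. The runs were not tested against each other. Ccl6, a myeloid chemokine of rodents, had 99.6, 95.8 and 85.6 CPM in APC-KI tumours, against 105, 147 and 105 CPM in APC-WT tumours (log2 change -0.34, SE 0.15, adjusted p = 0.137). Its APC-KI libraries all lay below the APC-WT ones. Ccl9, likewise a rodent myeloid chemokine, had 30.4, 35.9 and 19.7 CPM in APC-KI tumours and 25.6, 13.4 and 58.7 CPM in APC-WT tumours, where both the highest and the lowest library were APC-WT. Ccl5, made by cytotoxic T cells, had 3.46, 10.8 and 2.54 CPM in APC-KI tumours, against 2.29, 0.93 and 1.59 CPM in APC-WT tumours (log2 change 1.80, SE 0.62, adjusted p = 0.0855). APC-KI replicate 2, the library with the highest B and T cell marker sums, had by far the highest value of Ccl5. Ccr1, a receptor for Ccl3, Ccl5, Ccl6 and Ccl9 on myeloid cells, did rise, with 37.7, 49.3 and 34.0 CPM in APC-KI tumours, against 21.4, 23.0 and 26.9 CPM in APC-WT tumours (log2 change 0.76, SE 0.16, adjusted p = 0.0232). It missed the threshold without APC-KI replicate 1 or 2 (adjusted p = 0.0656 and 0.0561) or APC-WT replicate 1 or 2 (adjusted p = 0.0603 and 0.0851).

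**Figure D3:**
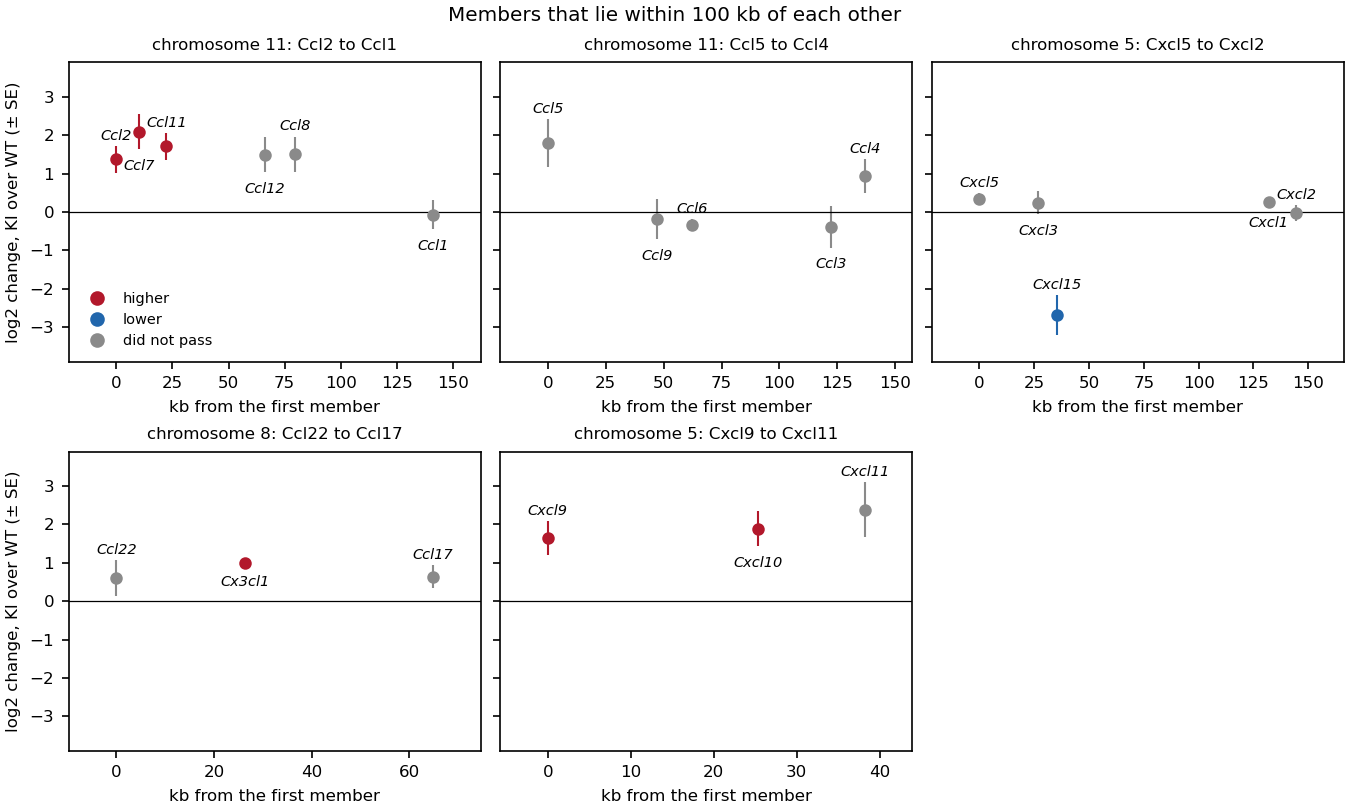
Log2 change (APC-KI over APC-WT, points with bars of 1 SE) of members that lie within 100 kb of each other, against their distance in kb from the first member of the run. In the Ccl2 to Ccl1 run 3 of 6 members passed as higher, and in the Ccl5 to Ccl4 run 0 of 5, where 12.5% of all genes did. In the latter run Ccl5 (1.80) and Ccl4 (0.93) lie above 0, and Ccl9, Ccl6 and Ccl3 below it.

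All 3 interferon-inducible ligands of Cxcr3, which lie within 44.1 kb on chromosome 5, had APC-KI libraries above APC-WT libraries, and 2 passed. Over all genes 23% had every APC-KI library above every APC-WT library, and 12.5% passed as higher. A list of 3 neighbours was not tested against these shares. Cxcl9 (chr5:92321347-92328079), which draws activated T cells, had 75.5, 142 and 55.7 CPM in APC-KI tumours, against 24.2, 19.3 and 44.1 CPM in APC-WT tumours (log2 change 1.64, SE 0.44, adjusted p = 0.0450). Cxcl10 (chr5:92346638-92348889), of the same function, had 28.3, 50.6 and 16 CPM in APC-KI tumours, against 6.92, 6.66 and 12.1 CPM in APC-WT tumours (log2 change 1.88, SE 0.46, adjusted p = 0.0347). In both genes APC-KI replicate 2 was by far the highest library, and APC-KI replicate 3 and APC-WT replicate 3 came close to each other. Cxcl11, which the annotation used here lists as a polymorphic pseudogene, had 4.78, 9.92 and 2.63 CPM in APC-KI tumours, against 0.42, 2.09 and 0.82 CPM in APC-WT tumours, and did not pass (log2 change 2.38, SE 0.72, adjusted p = 0.0615). Cxcr3, their receptor on T helper 1 and cytotoxic cells, had 0.98, 2.01 and 0.80 CPM in APC-KI tumours, against 0.39, 0.25 and 0.62 CPM in APC-WT tumours. It also did not pass (log2 change 1.59, SE 0.49, adjusted p = 0.0608). The calls of Cxcl9 and Cxcl10 each ended without APC-KI replicate 1, APC-KI replicate 2, APC-WT replicate 1 or APC-WT replicate 2, with adjusted p of 0.0945, 0.105, 0.126 and 0.126 for Cxcl9 and of 0.0855, 0.0779, 0.102 and 0.112 for Cxcl10. T cell markers were higher in the same APC-KI libraries, with the sum again highest in APC-KI replicate 2, and their part was not tested.

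The promoter of Cxcl10 is shown because it is a known target of interferon and NF-kB signals. The 250 bases before its RefSeq start (chr5:92348890-92349139, minus strand, GRCm38.p6) are given 5′ to 3′, with matches to the core of the interferon-stimulated response element (GAAA, any 2 bases, then GAAA) and to the NF-kB motif in capitals.

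Cxcl10: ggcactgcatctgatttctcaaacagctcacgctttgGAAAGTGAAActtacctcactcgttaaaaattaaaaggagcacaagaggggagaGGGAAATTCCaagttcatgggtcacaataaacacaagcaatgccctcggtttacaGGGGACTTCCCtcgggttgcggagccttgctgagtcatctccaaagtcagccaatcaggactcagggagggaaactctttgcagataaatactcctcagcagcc

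The response element match starts 213 bases before the start, and the NF-kB runs start 159 and 104 bases before it, the nearer run holding overlapping matches on both strands. A match describes letters and not a site in use.

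Cxcl12, Cx3cl1 and Cxcl16 rose. Cxcl12 (chr6:117168535-117181367), a stromal chemokine that holds Cxcr4-bearing cells in place, had 42.7, 70.2 and 53.2 CPM in APC-KI tumours, against 15.4, 16.7 and 21.9 CPM in APC-WT tumours. The lowest APC-KI library stood clear of the highest APC-WT library, and the fitted level was 3.07-fold higher (log2 change 1.62, SE 0.22, adjusted p = 0.00732). Its signalling receptor Cxcr4 had 13.2, 20.9 and 12.4 CPM in APC-KI tumours and 13.4, 10.9 and 11.3 CPM in APC-WT tumours, with overlapping groups (log2 change 0.39, SE 0.22, adjusted p = 0.247). Ackr3, the atypical receptor that removes Cxcl12, had 23.4, 20.9 and 30.7 CPM in APC-KI tumours and 22.3, 30.6 and 24.7 CPM in APC-WT tumours (log2 change -0.05, SE 0.18, adjusted p = 0.860). An interval of 2 SE on either side of these estimates includes changes in either direction for both receptors. Fibroblast markers summed to 989 to 1433 CPM in APC-KI and 288 to 825 CPM in APC-WT tumours (Dcn was the 1 of 4 that passed), and smooth muscle markers to 575 to 957 against 93.3 to 256 CPM (4 of 4 higher). Their part in the stromal chemokines was not tested.

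The Cxcl12 promoter is shown because its window holds a match to the TCF/LEF motif CTTTGA, the letters bound by the family of the repressed gene. The 250 bases before the RefSeq start (chr6:117168285-117168534, plus strand, GRCm38.p6) carry it on the other strand, in capitals, 162 bases before the start. Such a match occurred in 13.8% of the windows of all genes and in 17% of member windows, those of Ccl25 and Cxcl15, which fell, among them. It describes letters and not a site in use.

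Cxcl12: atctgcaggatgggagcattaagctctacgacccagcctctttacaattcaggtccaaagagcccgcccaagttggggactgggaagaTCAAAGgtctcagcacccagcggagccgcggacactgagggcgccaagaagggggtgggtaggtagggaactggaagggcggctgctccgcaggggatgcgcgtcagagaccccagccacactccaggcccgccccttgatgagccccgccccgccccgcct

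Cx3cl1 (chr8:94772009-94782427), or fractalkine, a chemokine of epithelium and endothelium that is anchored in the membrane and can be shed, had the smallest p-value of all members. It had 90.7, 92.3 and 83.7 CPM in APC-KI tumours, against 45.9, 44.4 and 43.1 CPM in APC-WT tumours. The 6 libraries fell into 2 tight groups, with 2.00-fold higher levels in APC-KI tumours (log2 change 1.00, SE 0.07, adjusted p = 0.00169). Its receptor Cx3cr1, found on resident gut macrophages, had 18.6, 27.9 and 23.1 CPM in APC-KI tumours and 13.9, 17.8 and 30.5 CPM in APC-WT tumours (log2 change 0.16, SE 0.31, adjusted p = 0.725). APC-WT replicate 3 held the highest value of Cx3cr1, so the groups overlapped. Cxcl16 (chr11:70453983-70459984), the other chemokine with a membrane anchor, had 83.6, 106 and 89.1 CPM in APC-KI tumours, against 63.1, 68.3 and 74.2 CPM in APC-WT tumours. The difference was small, at 1.35-fold (log2 change 0.44, SE 0.11, adjusted p = 0.0360), and passed without APC-WT replicate 3 but not without APC-KI replicates 1, 2 or 3 (adjusted p = 0.0588, 0.0939 and 0.0535) or APC-WT replicates 1 or 2 (adjusted p = 0.0873 and 0.112). With library totals in place of scaling factors it did not pass either, and its exons share 552 bases with Zmynd15 on the other strand. Cxcr6, the receptor of Cxcl16 on resident lymphocytes, had 4.91, 8.05 and 4.16 CPM in APC-KI tumours and 4.20, 6.20 and 4.54 CPM in APC-WT tumours (adjusted p = 0.660).

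Cxcl1, Cxcl2, Cxcl3 and Cxcl5, which draw neutrophils through Cxcr2, lie in 1 run on chromosome 5 with Cxcl15. By edgeR 0 of these 5 passed as higher and Cxcr2 itself did. Over all genes 12.5% passed as higher, so a list of 5 may well hold 0. At an unadjusted p under 0.05 Cxcl1 alone would count as higher, as would 4048 of all 19127 genes. DESeq2 and limma-voom each called 0 of the 5 higher, and 3362 and 2478 of all genes. Cxcl5, an epithelial ligand, had 224, 184 and 216 CPM in APC-KI tumours and 136, 201 and 155 CPM in APC-WT tumours, and APC-WT replicate 2 lay within the APC-KI range (log2 change 0.34, SE 0.16, adjusted p = 0.157). Cxcl1 had 38.2, 30.7 and 35.3 CPM in APC-KI tumours, against 29.5, 27.2 and 30.6 CPM in APC-WT tumours, with APC-KI replicate 2 and APC-WT replicate 3 nearly level (log2 change 0.26, SE 0.11, adjusted p = 0.129). Cxcl2 had 59.7, 44.4 and 42.7 CPM in APC-KI tumours and 62.9, 48.4 and 38.5 CPM in APC-WT tumours (log2 change -0.03, SE 0.21, adjusted p = 0.934). Cxcl2 and Cxcl3 share a small part of their sequence, and Cxcl3 ranged from 9.44 to 14.0 CPM in APC-KI and from 7.12 to 14.0 CPM in APC-WT tumours. Cxcl15, or lungkine, known mainly from mouse lung, fell, with 0.15, 0.11 and 0.23 CPM in APC-KI tumours, against 0.66, 1.81 and 0.80 CPM in APC-WT tumours. These are 8, 6 and 13 counts in APC-KI tumours and 44, 103 and 43 counts in APC-WT tumours (log2 change -2.69, SE 0.52, adjusted p = 0.0177), and the call ended without APC-KI replicate 1 or 2 (adjusted p = 0.0727 and 0.0668). Cxcr2 (chr1:74153989-74161246), the neutrophil receptor, had 17.4, 26.9 and 17.9 CPM in APC-KI tumours, against 9.06, 10.9 and 10.9 CPM in APC-WT tumours. Its level was 2.01-fold higher (log2 change 1.01, SE 0.20, adjusted p = 0.0187), and it missed the threshold without APC-WT replicate 2 (adjusted p = 0.0645). Neutrophil markers summed to 470 to 665 CPM in APC-KI and 298 to 384 CPM in APC-WT tumours, with Ly6g and Retnlg passing as higher among 5, and their part in the Cxcr2 result was not tested.

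The promoters of Cxcl1, Cxcl2 and Cxcl3 are shown because these neighbours on chromosome 5 carry the same NF-kB match, in capitals, while none of the 3 passed. Each window is the last 120 bases before the RefSeq start on the plus strand of GRCm38.p6, at chr5:90891125-90891244 for Cxcl1, chr5:90903779-90903898 for Cxcl2 and chr5:90785981-90786100 for Cxcl3. The run in capitals matches on both strands, 1 base apart, and begins 71 bases before the start of Cxcl1, 97 before that of Cxcl2 and 73 before that of Cxcl3.

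Cxcl1: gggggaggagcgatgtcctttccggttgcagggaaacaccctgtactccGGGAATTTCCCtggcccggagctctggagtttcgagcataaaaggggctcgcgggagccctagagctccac
Cxcl2: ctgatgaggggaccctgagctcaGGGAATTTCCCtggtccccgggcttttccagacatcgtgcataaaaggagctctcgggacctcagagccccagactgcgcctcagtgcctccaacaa
Cxcl3: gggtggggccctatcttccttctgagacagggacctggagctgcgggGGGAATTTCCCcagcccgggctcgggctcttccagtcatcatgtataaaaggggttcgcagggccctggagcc

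Among the other receptors, Ccr8, Ackr1 and Ackr2 rose. Ccr8 (chr9:120092114-120094906), carried by regulatory and type 2 helper T cells, had 1.00, 1.45 and 1.23 CPM in APC-KI tumours, against 0.33, 0.37 and 0.32 CPM in APC-WT tumours. Its groups lay far apart for so low a level (log2 change 1.85, SE 0.26, adjusted p = 0.00826). Ackr1 (chr1:173331886-173333750), the atypical receptor of venules and red cells, had 3.57, 5.33 and 4.18 CPM in APC-KI tumours, against 1.02, 1.76 and 1.27 CPM in APC-WT tumours (log2 change 1.69, SE 0.28, adjusted p = 0.0123). It shares 361 exon bases on the same strand with Cadm3, which was also higher (log2 change 1.5, adjusted p = 0.0123), so reads of the 2 genes may have been mixed. Ackr2 (chr9:121898355-121911074), which clears inflammatory CC chemokines and is typical of lymphatic endothelium, had 4.49, 5.39 and 7.77 CPM in APC-KI tumours, against 2.83, 2.04 and 3.23 CPM in APC-WT tumours (log2 change 1.12, SE 0.29, adjusted p = 0.0375). The call for Ackr2 held without APC-WT replicate 3 only, with adjusted p of 0.0645, 0.091 and 0.0765 without APC-KI replicates 1, 2 and 3 and of 0.0772 and 0.116 without APC-WT replicates 1 and 2. Ackr4, which clears Ccl19, Ccl21 and Ccl25, had 0.94, 0.48 and 1.97 CPM in APC-KI and 1.47, 1.92 and 1.70 CPM in APC-WT tumours and did not pass (adjusted p = 0.417). Ccr6, the receptor of Ccl20 on B cells and type 17 helper cells, had 1.36, 5.14 and 1.71 CPM in APC-KI tumours, against 0.73, 0.83 and 0.73 CPM in APC-WT tumours (log2 change 1.84, adjusted p = 0.0527). Ccr4, Cxcr1 and Xcr1 did not pass either, with log2 changes of 0.94, -0.29 and 0.80. Of the 22 receptors tested 0 were lower, by this test, by DESeq2, by limma-voom or at an unadjusted p under 0.05. Over all genes 7.63% were lower by this test, and 3186 of 19127 at that unadjusted p. DESeq2 called 2230 genes lower and limma-voom 1454. A list of 22 may hold few or 0 lower genes at such shares, and the difference was not tested.

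Ligands and receptors were set side by side in 32 known pairs. In 1 pair, Ccl28 and Ccr10, both partners passed as higher. In 11 pairs the ligand alone passed as higher, and in 12 the receptor alone, where Ccr1 and Cxcr2 recur. Of all genes tested 12.5% passed as higher, and of the members tested 31.6%, and the pair counts were not tested against these shares. Receptors with several ligands recur, so the pairs are not independent, and a partner that missed the threshold is not thereby shown to be level. The Ccl25 and Ccr9 pair was the only one whose partners passed in opposite directions.

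**Figure D4:**
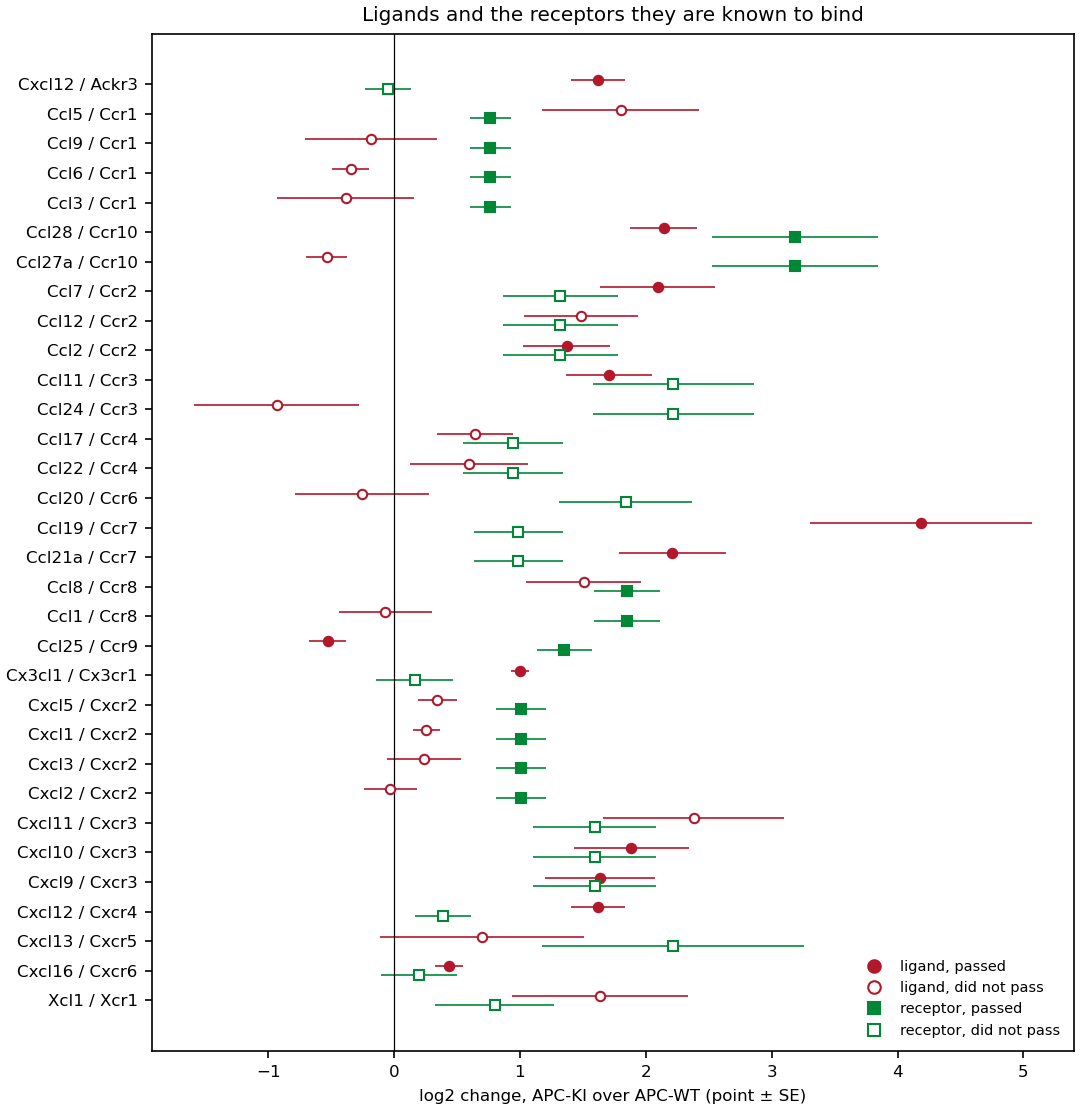
Log2 change (APC-KI over APC-WT, with bars of 1 SE) of the ligand (circle) and the receptor (square) in each of 32 pairs, filled where the gene passed the test. The row of Ccl28 and Ccr10 alone has both symbols filled right of 0, and in the row of Ccl25 and Ccr9 the filled symbols lie on opposite sides of 0.

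Over all genes tested 12.5% were higher and 7.63% lower. By role, the CC ligands had 6 higher (30%) and 1 lower of 20 tested, the CXC ligands 4 higher (30.8%) and 1 lower of 13, and the XC and CX3C ligands 1 higher of 2. Of the signalling receptors 5 of 18 were higher, and of the atypical receptors 2 of 4. Within the CC ligands, those of homing had 3 higher and 1 lower of 6, and the inflammatory ones 3 higher of 14. Among CC receptors 4 of 10 passed as higher. Among the CXC, XC and CX3C receptors it was 1 of 8, the same share as over all genes. Lists this short were not tested against each other.

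Levels between genes were compared per kilobase of annotated exon, since longer transcripts give more counts. In order of their APC-KI level, the highest were Cxcl5 with 112 CPM per kb in APC-KI and 87.9 in APC-WT tumours, Ccl21a with 57.0 and 12.3, Cxcl14 with 52.8 and 36.4, and Ccl6 with 52.2 and 66.2. In APC-WT tumours Ccl6 came second after Cxcl5, and Ccl21a lay below Cxcl2 (24.1 CPM per kb), Cxcl16 (22.7) and Cxcl1 (15.5). Cxcl14, an epithelial chemokine, had 82.2, 102 and 105 CPM in APC-KI tumours and 51.3, 56.8 and 91.2 CPM in APC-WT tumours, and APC-WT replicate 3 fell within the APC-KI range (log2 change 0.54, SE 0.23, adjusted p = 0.138). Among signalling receptors Ccr1 stood highest, with 14.3 CPM per kb in APC-KI and 8.39 in APC-WT tumours. Ccl20, an epithelial attractant of Ccr6-bearing cells, had 6.24, 5.68 and 5.67 CPM in APC-KI tumours, against 11.8, 6.96 and 2.21 CPM in APC-WT tumours, so that the APC-WT libraries alone spanned a wide range. The other ligands that did not pass were Ccl1, Ccl3, Ccl4, Ccl17, Ccl22, Cxcl17 and Xcl1, whose libraries ranged from 0.060 CPM (Xcl1, APC-WT replicate 1) to 9.67 CPM (Ccl22, APC-KI replicate 2).

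**Figure D5:**
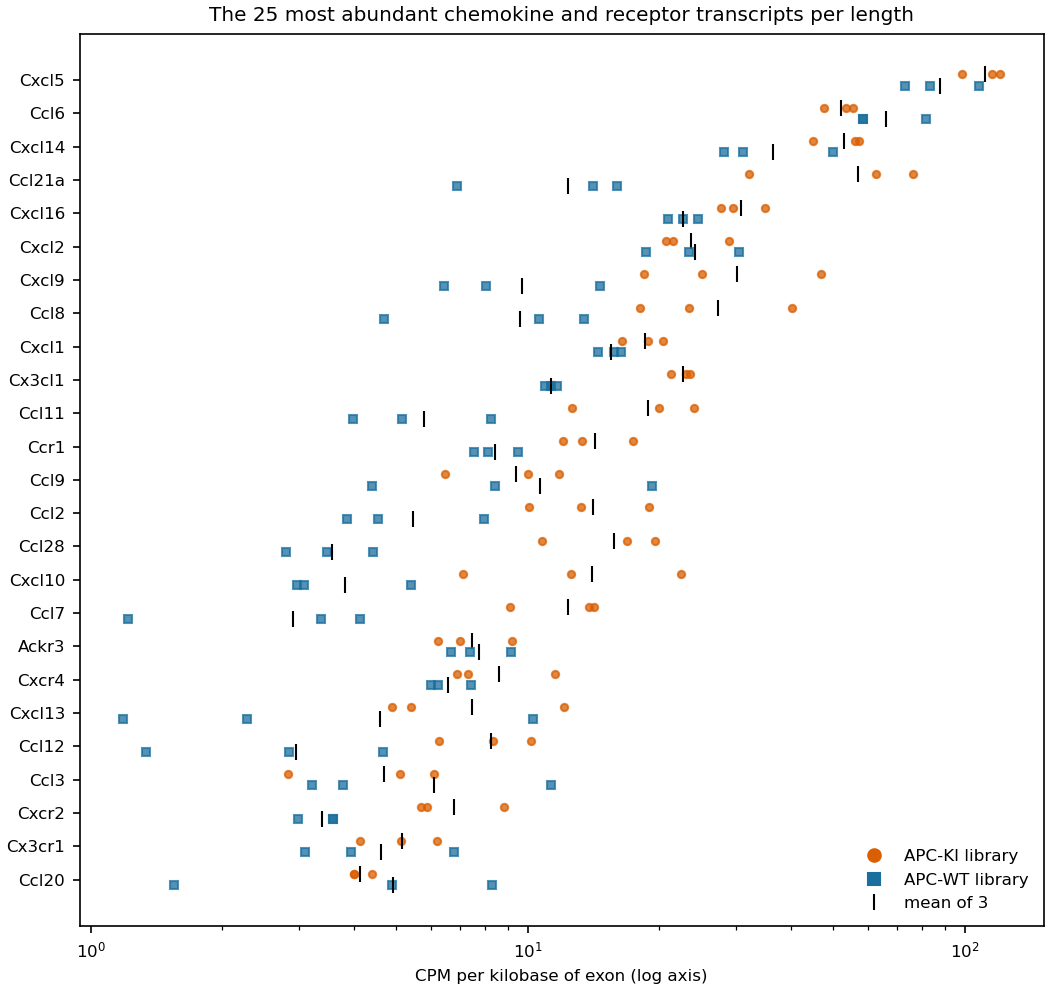
CPM per kilobase of exon (log axis) in each library for the 25 members with the highest levels, APC-KI above APC-WT in each row, with a tick at each mean. Cxcl5 leads, and Ccl21a, Ccl28 and Ccl7 show the APC-KI points well right of the APC-WT points. For Cxcl9 the lowest APC-KI point lies close to the highest APC-WT point.

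Promoter windows of 250 bases were given by RefSeq for 46 members (53 windows), and 4 motifs were searched on both strands. NF-kB matches occurred in 11 member windows (20.8%), against 7.25% of the 32851 windows of all genes. They were those of Cxcl1, Cxcl2, Cxcl3, Cxcl10, Ccl1, Ccl9, Ccl20, Ccr1, Ccr3, Ccr6 and Ackr2, of which Cxcl10, Ccr1 and Ackr2 passed as higher. The TCF/LEF motif CTTTGA occurred in 9 member windows (17%, against 13.8% of all), including those of Cxcl12, which rose, and of Ccl25 and Cxcl15, which fell. The response element core occurred in 3 (5.66%, against 2.98% of all), those of Cxcl10, Ccl19 and Cxcl14. The STAT motif TTCNNNGAA occurred in 4 (7.55%, against 7.02% of all). Matches of different motifs may overlap, as the TTCNNNGAA and CTTTGA matches in the Ccl17 window do, and a window without a match shows only that these letters are absent there.

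Other genes of the pathway were read from a list of 66, of which 64 were tested, 19 passed as higher (29.7%, against 12.5% of all genes) and 1 as lower (1.56%, against 7.63% of all genes). Their median log2 change was 0.25, against -0.02 over all genes. Of 15 tested genes for inducing cytokines and their receptors 7 were higher (46.7%) and of 19 signalling and desensitisation genes 5 were higher (26.3%). The smallest p-value was that of Il22ra1, the epithelial IL-22 receptor, with 64.5, 60.1 and 50.5 CPM in APC-KI tumours, against 17.4, 22.1 and 22.2 CPM in APC-WT tumours (log2 change 1.5, adjusted p = 0.00366). The TNF receptor Tnfrsf1a (log2 change 0.70), the interferon gamma receptor Ifngr1 (0.89), the IL-1 receptor Il1r1 (0.57) and the arrestin gene Arrb1 (0.75), which ends receptor signalling, were also higher. So were Nfkbiz (0.84) and Tnfaip3 (0.62), which tune NF-kB, the interferon factors Irf1 (0.96) and Stat2 (0.84), the heparan sulfate enzyme Hs3st1 (1.39) and the protease Mmp2 (1.14), which trims Cxcl12. The NF-kB subunit Relb was lower, with 43.9, 48.0 and 45.5 CPM in APC-KI tumours, against 60.8, 60.8 and 57.1 CPM in APC-WT tumours (log2 change -0.38, adjusted p = 0.0164). Ifng, the inducer of Cxcl9 and Cxcl10, was singled out after its values were seen. It had 0.71, 1.51 and 0.27 CPM in APC-KI tumours, against 0.10, 0.18 and 0.17 CPM in APC-WT tumours (log2 change 2.46, SE 0.66, adjusted p = 0.0442), and the call ended without any library except APC-KI replicate 3, with adjusted p up to 0.120. Relb, Irf1, Stat2 and Tnfaip3 missed the threshold without APC-KI replicate 1 (adjusted p = 0.062, 0.0659, 0.062 and 0.088) and without APC-WT replicate 2 (adjusted p = 0.0702, 0.0608, 0.0864 and 0.0899), and Mmp2 without APC-WT replicate 2 (adjusted p = 0.0569). Irf1, Stat2 and Tnfaip3 also missed it without APC-KI replicate 2 (adjusted p = 0.0573, 0.072 and 0.0848). In the 4 libraries without Y-linked counts Il22ra1 and Hs3st1 still passed, while the other 11 pathway genes named here did not, with adjusted p between 0.0544 for Nfkbiz and 0.334 for Ifng. With the presence of Y-linked counts as a covariate Il22ra1, Tnfrsf1a and Nfkbiz passed, and Hs3st1 did not (adjusted p = 0.0598).

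The 6 members not tested were Ccl19-ps1, Ccl19-ps3, Ccl21b, Ccl26 and Ccl27b, with 0 counts in all 6 libraries, and Ccr1l1, with 0, 5 and 6 counts in APC-KI tumours and 0, 1 and 0 counts in APC-WT tumours. A count of 0 in a library allows up to 3 counts. For the near copies Ccl19-ps1, Ccl19-ps3, Ccl21b and Ccl27b a 0 may also follow from how shared reads were treated. Ccl26 and Ccr1l1 share 0% of their 50-base stretches with other annotated genes.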

How the data were processed

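RNA was measured in 6 bulk colon tumours, 3 from APC-KI and 3 from APC-WT mice, with libraries made by a stranded mRNA kit, per the labels' protocols. The authors deposited a single table of raw counts, whole numbers by Ensembl gene and library, per the file headers and values. The submitters' processing notes name STAR, DESeq2 1.37.6, cutadapt 2.5 and Trim Galore 0.6.4, and the builds mm10 and GRCm38. Neither the counting tool, its use of strand nor the annotation release is given in the sources used here, so genes that overlap or share sequence are uncertain. GENCODE M21 (GRCm38) named 52093 of 53700 identifiers, though 35 identifier versions equalled its own, and gave exon lengths and positions.

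Genes were filtered with filterByExpr, scaled with TMM factors and tested in R 4.3.3 with edgeR 4.0.16 (robust quasi-likelihood test), with group as the only term, with Benjamini-Hochberg adjustment over 19127 genes. SE is the log2 change divided by the root of F. CPM are counts scaled with TMM factors. An exact two-sided permutation test of 3 against 3 cannot go below 0.1, so none is given. Chi-square values per gene of 36.4 to 104 within groups showed separate libraries. The steps were tested on simulated data. Alternatives were DESeq2 1.42.0, limma-voom 3.58.1, RLE factors, library totals, 2 other filters, the replicate number as a block, 2 fits for Y-linked counts and each library left out. Every member may be named, and of other pathway genes past the threshold at most 12, by smallest p, with Ifng named besides them after its values were seen. The members, gene lists, pairs and motifs were chosen with earlier results of these data known. Promoter sequences are from RefSeq (GRCm38.p6). The values of 1 member and of 1 pathway gene are not reported here, and pairs with that member were left out.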

Additional observations from a re-analysis of the deposited data

How the results depend on the processing

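The 20 member calls kept their direction under all 15 alternatives wherever they had a value, and Ccl19, Cxcl15, Ccr8 and Ccr10 had none with CPM above 1 in at least 3 libraries and were not tested there. Tcf7l2 stayed lower in each of the 15 (log2 change between -3.07 and -2.68). The count of higher members was 18 with RLE factors, 17 with library totals, 27 with DESeq2, 19 with limma-voom, 18 with no filter and 15 with CPM above 1 in at least 3 libraries. Over all genes, the share called higher in these fits was 12.5%, 10.3%, 12.5%, 13%, 7.09% and 14%, in the same order. Similar counts did not mean the same members. With no filter Ccl21a, Ccl25, Cxcl9 and Cxcl10 missed the threshold, while Ccr3, Ccr6 and Cxcr3 passed. With limma-voom Ccl25 and Cxcl10 missed it, while Ccl12, Ccl27a and Ccr3 passed. With RLE factors Ccl25 missed it (adjusted p = 0.0510), and with library totals Cxcl16 did. With each library left out it ranged from 7 to 21, and with either fit for Y-linked counts it was 1. The count of lower members was 1 with RLE factors, with no filter and with the stricter filter, 0 with either fit for Y-linked counts, and 0 to 2 with each library left out. Over all genes, the fit without Y-linked libraries called 178 higher and 152 lower, and the fit with their presence as a covariate 220 and 195. Library totals gave 2844 lower genes and DESeq2 2230, and single libraries left out gave 788 to 2542 higher and 300 to 1595 lower. Library totals set the median of all genes to -0.13, against -0.02, and the higher share of calls to 41%, against 62.1%, while the median of the members was 0.82, against 0.94. DESeq2, which tests more genes, also called Ccl5, Ccl8, Ccl12, Cxcl11, Ccr2, Ccr3, Ccr6, Ccr7 and Cxcr3 higher and Ccl27a lower.

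The replicate numbers showed no pairing of the libraries, with correlations of deviations of 0.035, -0.068 and -0.182 for the same numbers. Those for different numbers ranged from -0.145 to 0.198. With 3 libraries per group this check cannot exclude pairing. With the replicate block 12 members were higher and 0 lower, and over all genes 1195 were higher and 465 lower. The cause was not tested.

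Reversals concerned only members that did not pass. With libraries without Y-linked counts, and then with their presence as a covariate, the log2 change was 0.30 and 0.31 for Ccl3, -0.13 and -0.13 for Ccl22, 1.41 and 1.41 for Ccl20, 0.35 and 0.35 for Cxcl2, -0.30 and -0.29 for Cxcl3, -0.31 and -0.31 for Cxcl17, 0.40 and 0.41 for Cxcr1, -0.40 and -0.40 for Cx3cr1, and 0.016 and 0.018 for Ackr3. It was 0.042 with limma-voom and 0.048 with the block for Ccl9, and 0.023 with the block for Ccl20. The cause was not tested. Leaving out single libraries also turned the sign of members near 0, with ranges given by their lowest and highest values: -0.36 to 0.12 for Ccl1, -0.69 to 0.42 for Ccl3, -0.56 to 0.55 for Ccl9, -0.68 to 0.35 for Ccl20, -0.19 to 0.17 for Cxcl2, -1.07 to 0.23 for Cxcr1, -0.13 to 0.38 for Cxcr6, -0.059 to 0.55 for Cx3cr1 and -0.24 to 0.086 for Ackr3.

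Depth limits the sparse members most, since Ccl19, Ccr10 and Cxcl15 rest on few counts in 1 group.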
